A study of Homo sapiens with 4 samples.

Results

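The HLA and antigen presentation genes are 31 genes that display peptides on the cell surface or prepare them for display, taken from the deposited table by gene symbol. All 31 were found among its 26255 symbols. They comprise the class I heavy chain genes HLA-B, HLA-C, HLA-E, HLA-F and HLA-G with B2M, 8 class II chain and HLA-DM genes with CD74, the transactivator genes CIITA and NLRC5, and genes of peptide transport, loading and trimming, of the immunoproteasome, and of ligands read by T cells and natural killer cells. The cells are A549, an established human lung adenocarcinoma line, in 4 RNA-seq libraries with 1 library per group. Acinar tumor and solid tumor are A549 cells cut by laser microdissection from xenografts in immunodeficient mice, an acinar tumor forming gland-like structures and a solid one growing as sheets. Mix culture and single culture are GFP-labelled A549 cells sorted from 3D colonies, and the mix culture was read as the one grown with cancer-associated fibroblasts (CAFs), the fibroblasts of a tumor's stroma. All 4 groups carry the same line with no other genotype or agent named in the labels. For the mouse strain, the origin of the CAFs, and whether both tumor types came from one animal, nothing is stated in the sources used.

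As background, class I molecules consist of a heavy chain and beta-2-microglobulin and present peptides made in the cytosol to cytotoxic T cells. The peptides are cut by the proteasome, carried into the endoplasmic reticulum by the TAP transporter, trimmed by ERAP enzymes and loaded with the help of tapasin. Class II molecules present peptides taken up from outside and are loaded in endosomes with the help of HLA-DM after CD74, the invariant chain, is removed. NLRC5 drives class I genes and CIITA drives class II genes, and interferon-gamma induces both programmes in many cell types.

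Values are scaled counts, the deposited normalised fragment counts divided by the same constant in all 4 libraries. They are not divided by gene length, so levels are compared between libraries and not between genes. Estimated depths were 6630000 fragments in the acinar tumor, 7270000 in the solid tumor, 12180000 in the mix culture and 10970000 in the single culture. Since each group is 1 library, the spread between replicates is unknown, differences are those between these libraries, and p-values are not reported. Intervals are exact 95% intervals that cover counting error only. Of the 31 genes, 26 reached 1 scaled count in some library. HLA-G, HLA-DRB1, HLA-DQA1, HLA-DQB1 and the disulfide isomerase gene PDIA2 did not. A549 epithelial markers were present in every library, with all 9 at 1 scaled count or more, but at unlike levels. Against the cultures 5 of 9 lay higher in both tumors, where 39.8% of all genes did, and 1 lower, where 38.7% did. In the mix culture 7 of 9 were below the single culture, where 48.0% of all genes were, and 2 above. KRT19 differed most both times. It had 818 scaled counts in the acinar and 607 in the solid tumor, against 15.1 in the mix and 33.4 in the single culture. In bulk RNA, fewer cells of a type and less RNA per cell cannot be told apart.

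**Figure D1:**
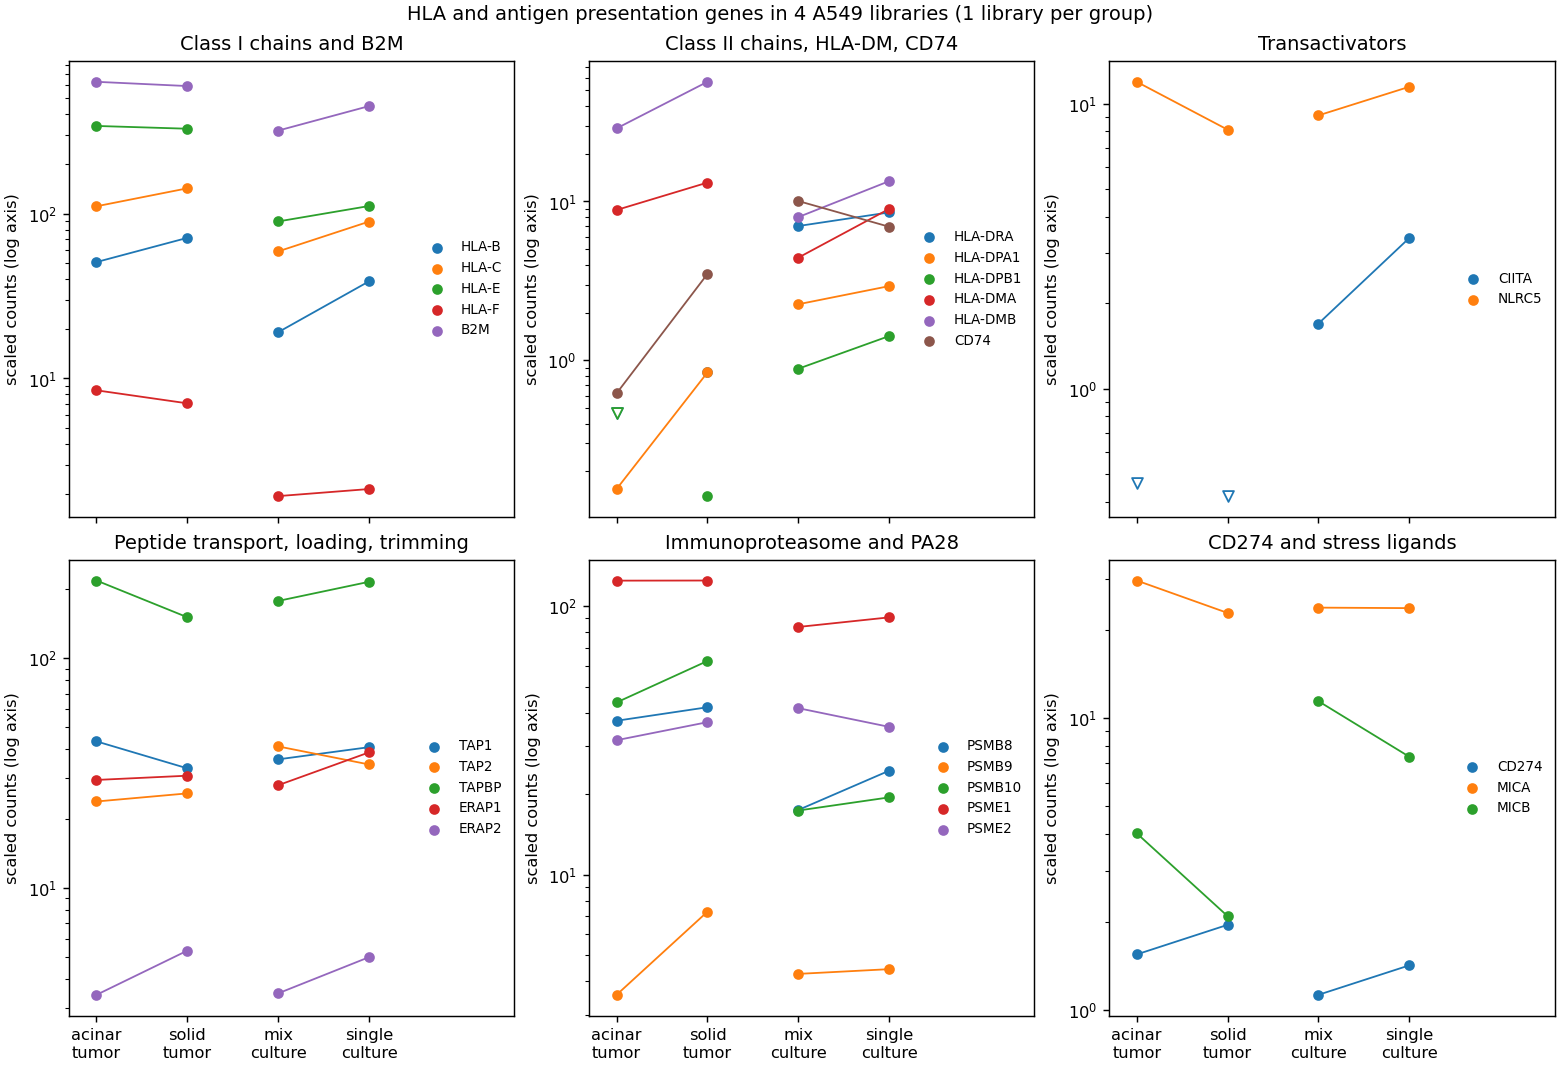
Scaled counts (log axis) of the 26 genes that reached 1 scaled count in some library, in panels by role, with 1 point per library and lines joining the 2 libraries of a pair. Open triangles mark genes listed at 0, drawn at the value of 3 fragments in that library. All 5 class I panel genes lie higher in both tumors than in both cultures, as do 39.8% of all 14561 genes tested. CIITA is listed at 0 in both tumors.

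In the mix culture, every measured class I gene was lower than in the single culture, and HLA-B stood furthest from the single culture. HLA-B, a classical class I heavy chain gene, had 19.1 scaled counts in the mix culture, against 38.8 in the single culture, a 2.04-fold lower level (interval 1.73 to 2.39). HLA-C, the other classical heavy chain gene among the members, had 59.0 scaled counts in the mix culture, against 89.5 in the single culture, and was 1.52-fold lower (1.38 to 1.67). B2M, the light chain shared by all class I molecules, had 319 scaled counts in the mix culture and 449 in the single culture, 1.41-fold lower (1.35 to 1.47). HLA-E, a heavy chain that presents leader peptides to natural killer cell receptors, had 89.7 scaled counts in the mix culture and 111 in the single culture, 1.24-fold lower (1.14 to 1.35). The 4 intervals lie below no difference, and those of HLA-B and HLA-E do not overlap, so the gap was not the same for both heavy chains. HLA-F was at 1.93 scaled counts in the mix and 2.13 in the single culture, 24 fragments each, and its interval of 0.6 to 2.03 included no difference. HLA-G, a heavy chain gene of the placenta, was listed at 0 in both cultures and in the solid tumor and had 1 fragment in the acinar tumor.

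Between the tumors, the class I genes split. In the acinar tumor HLA-B had 50.9 scaled counts, against 71.3 in the solid tumor, 1.4-fold lower (1.22 to 1.62). HLA-C had 111 scaled counts in the acinar tumor and 142.5 in the solid tumor, 1.29-fold lower (1.17 to 1.42). HLA-E was at 341 and 328 scaled counts in the acinar and solid tumor, a fold of 1.04 (0.98 to 1.1), and B2M at 631 and 595, a fold of 1.06 (1.016 to 1.11). The classical heavy chain genes were thus lower in the acinar tumor while HLA-E and the light chain gene were not. HLA-F had 8.47 scaled counts in the acinar and 7.06 in the solid tumor, with fractional fragments and no interval.

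Ratios of 2 genes within a library do not depend on the scaling between libraries. HLA-B fragments came to 8.06% of the B2M fragments in the acinar tumor (7.18 to 9.02%), against 11.99% in the solid tumor (10.9 to 13.1%). They came to 5.98% of B2M in the mix culture (5.22 to 6.82%), against 8.64% in the single culture (7.82 to 9.53%). HLA-B was thus lower relative to B2M in the acinar tumor and in the mix culture than in the other library of the pair, with intervals that did not overlap. HLA-C came to 17.6% of B2M in the acinar tumor (16.2 to 19.0%), against 23.96% in the solid tumor (22.4 to 25.7%). In the cultures the HLA-C shares were 18.5% in the mix (17.1 to 20.0%) and 19.9% in the single culture (18.6 to 21.3%), with overlapping intervals.

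Upstream windows of the 3 genes whose levels in the mix culture differed most from the single culture among class I genes are shown because they are known to share a promoter layout. The sequences are RefSeq's for build GRCh38.p14, matched by symbol. The deposited values were made on hg19, so the coordinates are not those of the authors' files. Each is the 250 bases before the annotated start, 5′ to 3′ on the gene's strand, at chr6:31357180-31357429 (minus strand) for HLA-B, chr6:31272093-31272342 (minus strand) for HLA-C and chr15:44711267-44711516 (plus strand) for B2M. Capitals mark matches, on either strand, to an interferon-stimulated response element (ISRE: GAAA, any 2 bases, GAAA), an interferon-gamma activated site (GAS, TTCNNNGAA), the NF-kappaB consensus, the CCAAT box or the core TGACG of cAMP response elements.
HLA-B: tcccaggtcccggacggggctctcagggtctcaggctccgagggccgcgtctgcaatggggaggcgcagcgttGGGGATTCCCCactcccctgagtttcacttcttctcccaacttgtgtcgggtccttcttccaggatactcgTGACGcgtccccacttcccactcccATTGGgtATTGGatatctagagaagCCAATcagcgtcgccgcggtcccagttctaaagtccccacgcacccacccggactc
HLA-C: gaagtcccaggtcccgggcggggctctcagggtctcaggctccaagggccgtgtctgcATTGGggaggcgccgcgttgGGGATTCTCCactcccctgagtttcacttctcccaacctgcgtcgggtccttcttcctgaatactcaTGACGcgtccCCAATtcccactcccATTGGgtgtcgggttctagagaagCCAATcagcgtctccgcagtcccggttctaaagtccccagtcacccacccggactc
B2M: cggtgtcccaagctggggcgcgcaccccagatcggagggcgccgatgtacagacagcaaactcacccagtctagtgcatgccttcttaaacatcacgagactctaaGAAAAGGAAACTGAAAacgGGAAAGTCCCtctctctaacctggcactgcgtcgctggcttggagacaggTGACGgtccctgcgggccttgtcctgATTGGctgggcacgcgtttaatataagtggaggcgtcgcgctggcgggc
All 3 windows hold the NF-kappaB consensus, CCAAT and TGACG, and the B2M window also holds 2 overlapping ISRE matches. In the HLA-B window the NF-kappaB consensus matches at 2 overlapping positions on both strands. Among 35116 upstream windows of the same length, 5.21% hold the NF-kappaB consensus, 32.0% CCAAT, 21.2% TGACG, 3.02% the ISRE and 6.57% the GAS. Of the 31 genes, 27 have a window in the RefSeq table, 18 of them on chromosome 6. The NF-kappaB consensus occurs in windows of 7 of the 27, CCAAT of 17, TGACG of 10, the ISRE of 9 and the GAS of 4. A gene was counted if any of its windows held a match, while the percentages are per window. The counts and the percentages are therefore unlike measures, and no excess can be read from them. A match is a run of letters and not a measured binding site.

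Class II genes did not share one pattern. CIITA, the master regulator of class II transcription, was listed at 0 in both tumors, against 21 fragments in the mix culture and 38 in the single culture. Taken against the value of 3 fragments in each tumor library, CIITA was lower than in the mix culture by at least 3.64-fold in the acinar tumor and by at least 4.03-fold in the solid tumor. Within the cultures it was 2-fold lower in the mix (1.69 against 3.38 scaled counts, 1.14 to 3.58). HLA-DRA, the invariant alpha chain of HLA-DR, was listed at 0 in the acinar tumor and had 6 fragments in the solid tumor, against 87 in the mix and 96 in the single culture. In the solid tumor it was 8.35-fold lower than in the mix culture (3.68 to 23.4), and between the cultures its interval included no difference (7.005 in the mix, 8.53 scaled counts in the single culture, 1.22-fold lower, 0.902 to 1.65). HLA-DPA1, the HLA-DP alpha chain, had 1 fragment in the acinar and 6 in the solid tumor, against 28 in the mix and 33 in the single culture. HLA-DPB1, its beta chain partner, was listed at 0 in the acinar tumor and had 1 fragment in the solid tumor, against 11 and 16 fragments in the mix and single culture. For CIITA, HLA-DRA, HLA-DPA1 and HLA-DPB1, both tumors therefore lay below both cultures, as they did for 38.7% of all 14561 genes.

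The HLA-DM genes, which encode the peptide exchange factor for class II, had another pattern. HLA-DMB was highest in the solid tumor, with 28.8 scaled counts for the acinar tumor and 56.6 in the solid tumor, against 7.97 in the mix and 13.4 in the single culture. The acinar tumor was 1.96-fold lower than the solid tumor (1.65 to 2.35), and the mix culture 1.68-fold lower than the single culture (1.3 to 2.19). HLA-DMA had 8.84 scaled counts in the acinar tumor, against 13.1 in the solid tumor, 1.49-fold lower (1.06 to 2.1), and at 4.43 in the mix culture, against 8.98 in the single culture, 2.03-fold lower (1.45 to 2.87). Both HLA-DM genes were lower in the acinar tumor and in the mix culture than in the other library of the pair. Of the HLA-DM genes, HLA-DMB was above both cultures in both tumors, the reverse of HLA-DRA.

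CD74, the invariant chain that occupies the class II groove before loading, was the one gene of the 31 past 2-fold in the acinar tumor on the scale of scaled counts plus 1. It had 0.620 scaled counts in the acinar tumor, 4 fragments, against 3.50 in the solid tumor, 25 fragments, and was 5.64-fold lower (1.95 to 22.3). That call was lost with a pseudocount of 5 and with a filter of 5 scaled counts. In the cultures CD74 went the other way, at 10.1 scaled counts in the mix and 6.93 in the single culture, 1.45-fold higher (1.09 to 1.95). Both tumors lay below both cultures. For every HLA-DMB fragment there were 0.0215 CD74 fragments in the acinar tumor (0.0058 to 0.056) and 0.0617 in the solid tumor (0.0395 to 0.0925), against 1.26 in the mix (0.962 to 1.66) and 0.517 in the single culture (0.388 to 0.683). HLA-DRB1, the polymorphic HLA-DR beta chain, had 12 fragments in the mix culture and 2 in the single culture, and 1 in each tumor. HLA-DQA1, the HLA-DQ alpha chain, had 5 fragments in the mix culture and 1 in the solid tumor and was listed at 0 elsewhere, and HLA-DQB1, its beta chain, had 1 fragment in the mix culture and was listed at 0 in the other libraries. HLA-DRB1 was thus 5.44-fold higher in the mix culture, with a wide interval of 1.21 to 50.004, the reverse of HLA-DMA and HLA-DMB. It stayed under 1 scaled count in every library, as did HLA-DQA1 and HLA-DQB1, so none of the 3 enters the counts below.

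The upstream windows of CD74 and HLA-DMB are shown because CD74 was higher and HLA-DMB lower in the mix culture, as HLA-DMA and CIITA also were, from chr5:150412911-150413160 and chr6:32941029-32941278 (GRCh38.p14, both minus strand), with the same motifs in capitals.
CD74: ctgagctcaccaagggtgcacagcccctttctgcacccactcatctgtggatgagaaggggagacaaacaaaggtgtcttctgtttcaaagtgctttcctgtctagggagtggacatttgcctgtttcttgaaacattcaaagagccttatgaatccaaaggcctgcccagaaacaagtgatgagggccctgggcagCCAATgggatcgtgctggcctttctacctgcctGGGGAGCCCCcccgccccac
HLA-DMB: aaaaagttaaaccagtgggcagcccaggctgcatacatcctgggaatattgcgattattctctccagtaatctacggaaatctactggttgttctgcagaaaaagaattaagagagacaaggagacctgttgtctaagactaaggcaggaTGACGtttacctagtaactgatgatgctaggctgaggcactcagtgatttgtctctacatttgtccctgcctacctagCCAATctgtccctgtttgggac
Both hold a CCAAT match. The CD74 window also holds an NF-kappaB consensus, and the HLA-DMB window a TGACG match.

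Leukocyte markers were read beside the class II genes. The summed level of 11 leukocyte and antigen-presenting cell markers was 147 scaled counts in the acinar tumor and 241 in the solid tumor, against 44.9 in the mix and 51.3 in the single culture. Much of each tumor sum was CD68, at 113 scaled counts in the acinar and 175 in the solid tumor. Against the cultures 4 of 6 measured markers lay higher in both tumors, where 39.8% of all genes did. The monocyte marker CD14 was the 1 that lay lower, where 38.7% of all genes did. It had 13.4 scaled counts in the mix and 15.4 in the single culture, against 2.64 in the acinar and 9.65 in the solid tumor. Between the tumors 6 of the 11 markers were measured, with 2 above 0 and 4 below. CD14, LYZ and CD68 were past 1.5-fold lower in the acinar tumor, with CD14 at 2.64 against 9.65 scaled counts. ITGAM, a myeloid integrin gene, lay the other way, at 4.03 scaled counts in the acinar and 3.22 in the solid tumor, as did PTPRC. The pan-leukocyte gene PTPRC had few fragments, with 9 fragments in each tumor, 8 in the mix and 9 in the single culture. The B cell gene MS4A1 was listed at 0 in 3 libraries with 1 fragment in the mix culture, and TYROBP likewise with 1 fragment in the single culture. None of the 6 endothelial markers reached 1 scaled count. Host cells of a xenograft are mouse cells and the values stand under human symbols. The part of other cells in the class II values was not tested.

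Among genes that supply class I peptides, differences were small and mixed. NLRC5, the class I transactivator, had 11.9 scaled counts in the acinar tumor, against 8.11 in the solid tumor, 1.47-fold higher (1.03 to 2.11), and 9.10 in the mix culture, against 11.5 in the single culture, where the interval included no difference (1.26-fold lower, 0.971 to 1.64). TAPBP, which encodes tapasin, was 1.45-fold higher in the acinar tumor (218 against 151 scaled counts, 1.33 to 1.57) and 1.21-fold lower in the mix culture (177 against 215 scaled counts, 1.14 to 1.28). NLRC5 and TAPBP were thus higher in the acinar tumor in which HLA-B and HLA-C were lower. TAP1, one chain of the peptide transporter, had 43.4 scaled counts in the acinar and 33.1 in the solid tumor, and 36.2 in the mix and 40.9 in the single culture, all with fractional fragments. TAP2, its partner chain, was at 23.7 and 25.7 scaled counts in the acinar and solid tumor (fold 0.922, 0.739 to 1.15), and at 41.2 in the mix culture, against 34.4 in the single culture, 1.2-fold higher (1.05 to 1.37). ERAP1, a trimming peptidase gene, was at 29.4 scaled counts in the acinar and 30.7 in the solid tumor, and at 27.9 in the mix and 38.8 in the single culture, with fractional fragments. ERAP2, its paralog, was at 3.41 and 5.31 scaled counts in the acinar and solid tumor and at 3.46 and 4.98 in the mix and single culture, and both intervals included no difference. PDIA2, a member of the disulfide isomerase family, had 1 or 2 fragments in each library.

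**Figure D2:**
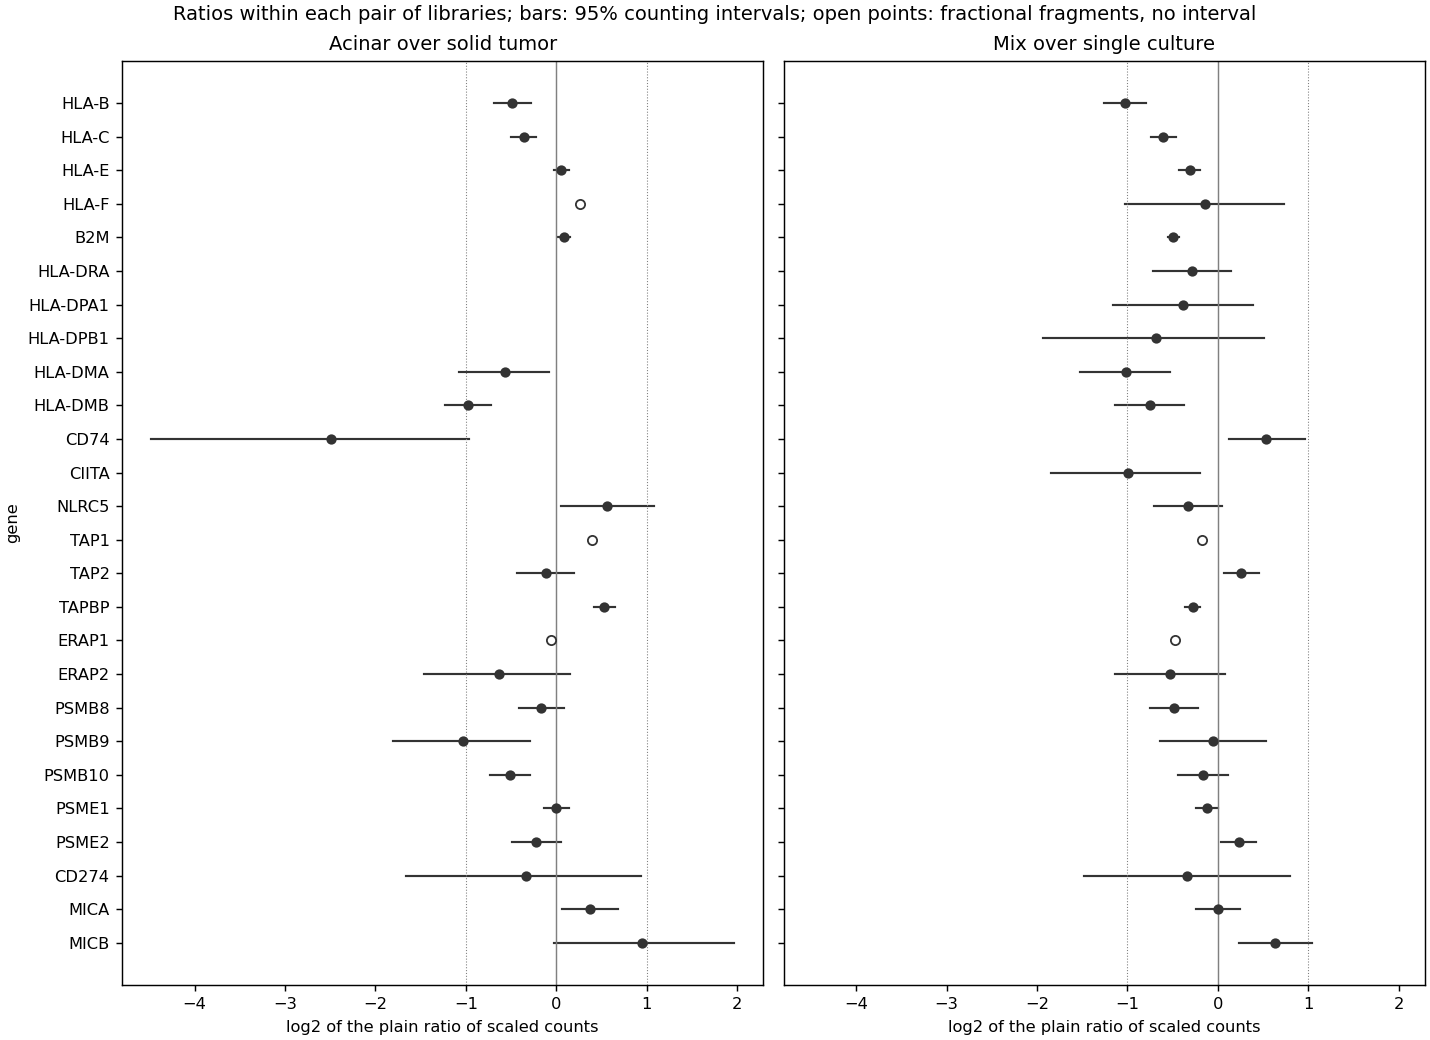
Log2 of the plain ratio of scaled counts for each gene measured in a pair, acinar over solid tumor on the left and mix over single culture on the right, with bars for 95% counting intervals. Open points are genes with fractional fragments and no interval, and dotted lines mark 2-fold. HLA-B, HLA-DMA and CIITA lie near the 2-fold line in the mix culture, and CD74 lies on opposite sides of 0 in the 2 panels.

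Immunoproteasome subunits replace their constitutive counterparts in cells exposed to interferon-gamma: PSMB8 for PSMB5, PSMB9 for PSMB6 and PSMB10 for PSMB7. PSMB8 was at 37.4 and 42.0 scaled counts in the acinar and solid tumor, where the interval included no difference (0.945 to 1.34 for solid over acinar), and at 17.4 in the mix culture, against 24.4 in the single culture, 1.4-fold lower (1.17 to 1.68). PSMB9 had 3.57 scaled counts in the acinar tumor, against 7.27 in the solid tumor, 2.04-fold lower (1.23 to 3.49), and at 4.27 and 4.44 in the mix and single culture. PSMB10 had 43.7 scaled counts in the acinar tumor, against 62.4 in the solid tumor, 1.43-fold lower (1.23 to 1.66), and at 17.3 and 19.4 in the mix and single culture, where the interval included no difference (0.923 to 1.36 for single over mix). All 3 catalytic subunit genes had lower values in the acinar tumor and in the mix culture than in the other library of the pair. For PSMB9 and PSMB10 in the cultures and PSMB8 in the tumors the gap was within counting error. PSME1 and PSME2 encode the PA28 activator that opens the proteasome. PSME1 was at 124 scaled counts in each tumor and at 83.5 and 90.7 in the mix and single culture. PSME2 was at 31.6 and 36.9 scaled counts in the acinar and solid tumor and at 41.6 in the mix culture, against 35.5 in the single culture, 1.17-fold higher (1.03 to 1.34).

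A list of 16 further proteasome genes holds PSMB5, PSMB6 and PSMB7 together with other core subunit and activator genes, so it is not specific to the constitutive form. All 16 had ratios above 0 in the mix culture, from 0.07 to 0.27 on the log2 scale (median 0.13), where 52.0% of all genes did. In the acinar tumor 14 of 16 were above 0 (median 0.12), where 50.8% of all genes were. As a share of PSMB5 fragments, PSMB8 came to 18.7% in the acinar tumor (16.2 to 21.5%) and 22.01% in the solid tumor (19.4 to 25.0%), against 7.96% in the mix (6.90 to 9.15%) and 12.7% in the single culture (11.1 to 14.4%). The mix and single intervals do not overlap, and both tumors lie above both cultures. PSMB9 came to 1.88% of PSMB6 in the acinar tumor (1.19 to 2.84%), against 4.16% in the solid tumor (3.09 to 5.49%), and to 1.93% in the mix (1.45 to 2.54%) and 2.43% in the single culture (1.80 to 3.21%). PSMB10 came to 21.0% of PSMB7 in the acinar tumor and 31.7% in the solid tumor, and to 11.1% in the mix and 13.3% in the single culture, without intervals because the PSMB7 fragments were fractional. In each of the 3 subunit pairs the solid tumor had the highest share.

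**Figure D3:**
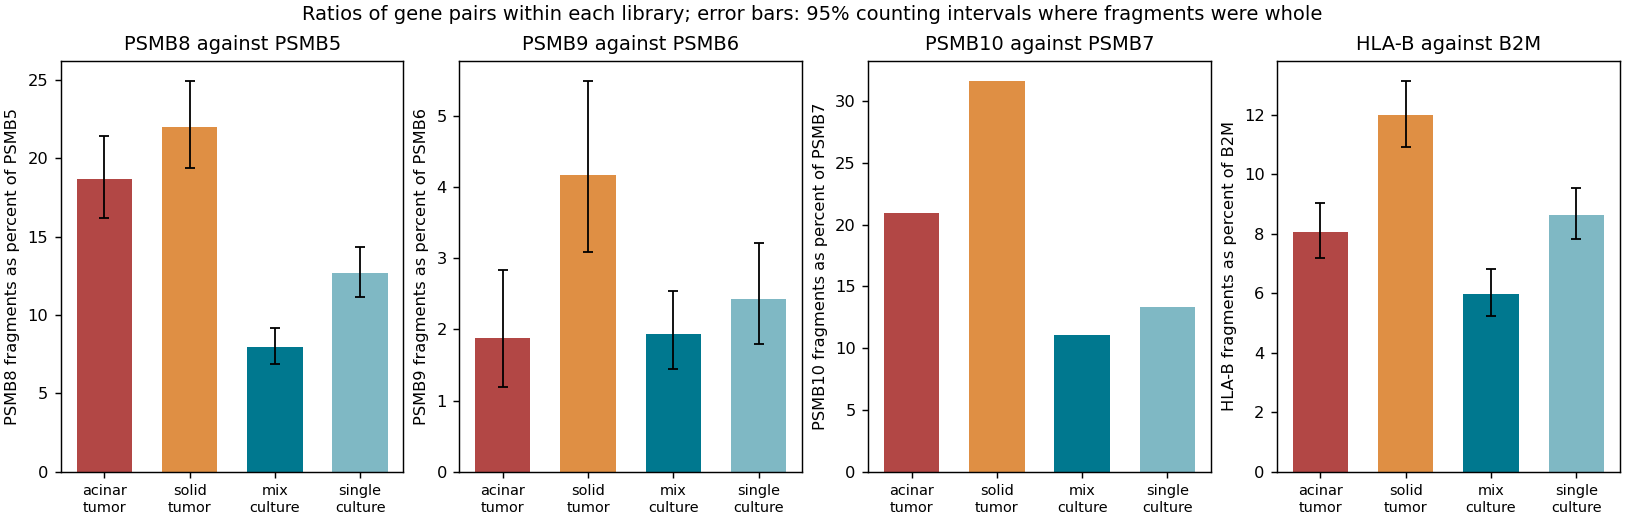
Fragments of one gene as a percent of the fragments of another in the same library, for 3 pairs of immunoproteasome and constitutive subunit genes and for HLA-B against B2M, with 95% counting intervals where fragments were whole. The solid tumor has the highest bar in all 4 panels. PSMB8 against PSMB5 is at 7.96% in the mix culture and 12.7% in the single culture.

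TAP1 and PSMB9 are divergent neighbours, with 488 bases between their annotated starts, and their values parted in the tumors. PSMB9 fragments came to 8.22% of TAP1 fragments in the acinar tumor, against 21.98% in the solid tumor, and to 11.8% in the mix and 10.9% in the single culture. Their upstream windows, chr6:32853705-32853954 (minus strand) and chr6:32853942-32854191 (plus strand, GRCh38.p14), face each other and share 13 bases, and are printed with the same motifs in capitals.
TAP1: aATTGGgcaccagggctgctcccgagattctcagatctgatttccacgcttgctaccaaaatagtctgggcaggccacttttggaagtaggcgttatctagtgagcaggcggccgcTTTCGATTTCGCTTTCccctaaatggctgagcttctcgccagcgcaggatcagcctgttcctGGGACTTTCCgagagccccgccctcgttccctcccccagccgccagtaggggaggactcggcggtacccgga
PSMB9: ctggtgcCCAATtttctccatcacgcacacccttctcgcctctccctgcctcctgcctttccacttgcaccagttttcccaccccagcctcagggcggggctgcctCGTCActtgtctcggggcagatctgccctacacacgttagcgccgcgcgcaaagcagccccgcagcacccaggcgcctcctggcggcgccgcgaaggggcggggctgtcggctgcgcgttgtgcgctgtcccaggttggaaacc
The TAP1 window holds 2 overlapping ISRE matches and an NF-kappaB consensus. The PSMB9 window holds neither. The TAP1 matches lie between the annotated starts but more than 250 bases upstream of PSMB9, so the PSMB9 window could not hold them. The CCAAT match of both windows is the same stretch, read from opposite strands.

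Of CD274, MICA and MICB, MICB had the ratios furthest from 0 in both pairs. MICB, a stress-induced ligand of the NKG2D receptor, had 4.03 scaled counts in the acinar and 2.10 in the solid tumor, against 11.4 in the mix and 7.38 in the single culture. It was 1.55-fold higher in the mix culture (1.17 to 2.06), and both tumors lay below both cultures. Its fold in the acinar tumor, 1.92, had an interval that included no difference (0.981 to 3.9). MICA, the related ligand gene, was at 23.9 and 23.8 scaled counts in the mix and single culture (fold 1.004, 0.848 to 1.19) and 1.29-fold higher in the acinar tumor (29.6 against 22.9 scaled counts, 1.04 to 1.6). MICB came to 47.8% of MICA fragments in the mix culture (38.9 to 58.6%), against 31.0% in the single culture (23.9 to 39.8%), with intervals that meet. CD274, which encodes the checkpoint ligand PD-L1, was low, with 10 and 14 fragments in the acinar and solid tumor and 14 and 16 in the mix and single culture, and no difference was detectable at this depth.

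Counts over the members used ratios of scaled counts plus 1, so a plain fold just above 2, as for HLA-B, can fall short of the limit. On that scale 0 of 26 measured genes were past 2-fold higher in the mix culture, where 0.682% of all 13485 genes were, and 0 were past 2-fold lower, where 1.74% were. At 1.5-fold, 5 of 26 were lower (HLA-B, HLA-DMA, CIITA, HLA-DMB and HLA-C), against 6.83% of all genes, and 0 were higher, against 3.31%. With a pseudocount of 5 that 5 became 1. Ratios below 0 numbered 21 of 26, against 48.0% of all genes, and the median log2 ratio was -0.27, against 0.01 over all genes. In the acinar tumor, 1 of 22 measured genes, CD74, was past 2-fold lower, where 2.55% of all 13979 genes were, and 0 were past 2-fold higher, where 1.98% were. At 1.5-fold, 3 were lower (CD74, HLA-DMB and PSMB9), against 8.07%, and 1 was higher (MICB), against 6.34%. Ratios below 0 numbered 14 of 22, against 49.2% of all genes, with a median of -0.14, against 0.01 over all genes. Members under 1 scaled count in both libraries of a pair do not enter these counts.

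**Figure D4:**
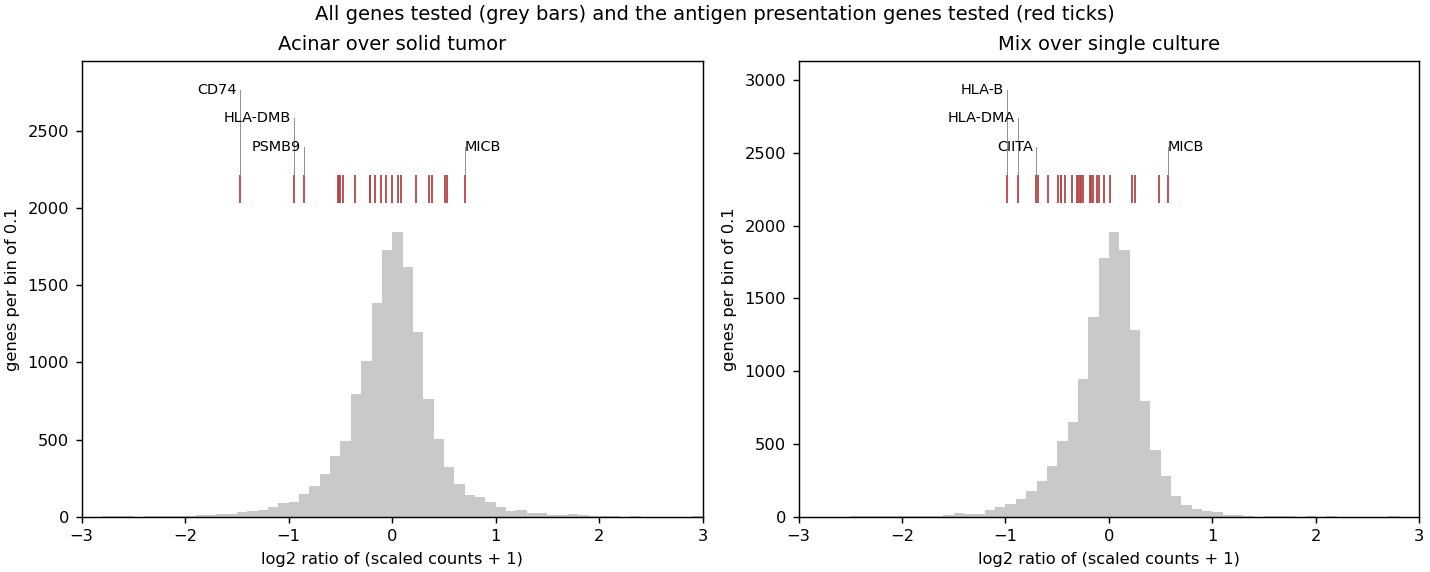
Log2 ratios of scaled counts plus 1 for all genes tested (grey bars, genes per bin of 0.1) and for the antigen presentation genes tested (red ticks), acinar over solid tumor on the left and mix over single culture on the right. 11 genes on the left and 3 on the right lie outside the axis. Of the red ticks, 21 of 26 lie below 0 in the mix culture and 14 of 22 in the acinar tumor.

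Set against the cultures, all 5 measured class I genes were higher in both tumors, as were 39.8% of all 14561 genes. A gene was counted here where the lowest tumor library lay past 2-fold above the highest culture library, or the highest tumor library past 2-fold below the lowest culture library. Of 26 measured genes, 4 were higher (HLA-E, HLA-F, PSMB10 and HLA-DMB), where 9.67% of all 14561 genes were, and 2 were lower (HLA-DRA and CIITA), where 8.22% were. A pseudocount of 5 left 1 on each side. The higher count was 3 with each library divided by its own total, where HLA-DMB fell short of 2-fold, and 3 with whole-fragment genes alone, which leaves out HLA-F. HLA-E was 3.80-fold higher in the acinar tumor than in the mix culture (3.53 to 4.09) and 2.94-fold higher in the solid tumor than in the single culture (2.75 to 3.16). B2M was 1.98-fold higher in the acinar tumor than in the mix culture (1.89 to 2.07) and 1.32-fold higher in the solid tumor than in the single culture (1.27 to 1.38). HLA-F was 4.39-fold higher in the acinar tumor than in the mix culture and 3.31-fold higher in the solid tumor than in the single culture, with fractional fragments in the tumors. Without regard to size, tumors and cultures did not overlap for 10 genes on the higher side, where 39.8% of all genes did not, and for 7 on the lower side, where 38.7% did not. Tumors and cultures also differ in how the cells were collected, by microdissection or sorting, and in depth, which cannot be told apart from the setting.

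Regulators of these genes were counted on the same scale of scaled counts plus 1. Of 12 interferon-gamma signalling genes measured in the tumors, 1 was past 1.5-fold higher and 1 lower in the acinar tumor, where 6.34% and 8.07% of all genes were. In the cultures 0 of 11 were past 1.5-fold, where 3.31% of all genes were higher and 6.83% lower in the mix culture. With so few genes these counts do not set the list apart from all genes. IRF1, an interferon-induced transcription factor that binds class I promoters, was 1.37-fold higher in the acinar tumor (30.5 against 22.4 scaled counts, 1.1 to 1.69), and its interval in the cultures included no difference (16.4 in the mix, 19.0 scaled counts in the single culture, 0.951 to 1.41 for single over mix). SOCS1, a feedback inhibitor of the pathway, was 3.14-fold higher in the acinar tumor (2.64 against 0.839 scaled counts, 1.18 to 9.73), and the repressor gene IRF2 was 1.55-fold lower there (15.7 against 24.3 scaled counts, 1.21 to 2.01). Of the 7 RFX, NF-Y and CREB1 factor genes, whose products bind class I and class II promoters, none was past 1.5-fold in either pair. RFX5, a subunit of the RFX complex, was at 34.6 and 24.3 scaled counts in the acinar and solid tumor, against 101 in the mix and 97.1 in the single culture.

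Interferon-stimulated genes had 4 of 19 measured members past 2-fold lower in the mix culture, where 1.74% of all genes were, and 0 higher, where 0.682% were (median -0.20). At 1.5-fold 6 were lower and 1 was higher, where 6.83% and 3.31% of all genes were. The higher one was IRF7, an interferon regulatory factor gene, at 7.17 scaled counts in the mix culture, against 4.09 in the single culture, 1.75-fold higher (1.21 to 2.56). Those past 2-fold lower were IFI6, IFI27, GBP2 and TRIM22, with GBP2, a guanylate-binding protein gene, at 4.99 scaled counts in the mix culture, against 11.6 in the single culture, 2.31-fold lower (1.7 to 3.18). In the acinar tumor 2 of 22 were past 2-fold lower, UBE2L6 and IFIT1, where 2.55% of all genes were, and 0 higher, where 1.98% were (median -0.07). At 1.5-fold there were 4 on each side, where 6.34% of all genes were higher and 8.07% lower. OAS1, an antiviral oligoadenylate synthetase gene, was the furthest on the higher side, at 361 scaled counts in the acinar tumor, against 217 in the solid tumor, 1.66-fold higher (1.56 to 1.78). UBE2L6, the conjugating enzyme gene for ISG15, had 5.43 scaled counts in the acinar tumor, against 13.01 in the solid tumor, 2.4-fold lower (1.61 to 3.64). Differences from the cultures were larger for this list. There 9 of 22 were past 2-fold higher in both tumors, where 9.67% of all genes were. UBE2L6 was the 1 past 2-fold lower, where 8.22% were. OAS1 had 31.2 scaled counts in the mix and 29.1 in the single culture. Of 9 genes of class II peptide processing, 8 were in the table and 6 were measured. CTSS, the cathepsin that cuts the invariant chain, was 1.94-fold lower in the mix culture (15.5 against 30.1 scaled counts, 1.62 to 2.33) and 1.56-fold higher in the acinar tumor (161 against 103 scaled counts, 1.42 to 1.71). IFI30, a lysosomal thiol reductase gene, was 1.75-fold lower in the mix culture (8.13 against 14.2 scaled counts, 1.35 to 2.27), and the aspartic protease gene CTSD was 1.5-fold lower (1.48 to 1.53). Endoplasmic reticulum chaperone genes were below 0 for all 9 members in the mix culture, where 48.0% of all genes were (median -0.15), with none past 2-fold and TAPBPL, a tapasin-related peptide editor gene, at 8.05 scaled counts in the mix culture, against 14.6 in the single culture. In the acinar tumor 8 of 9 were below 0, where 49.2% of all genes were (median -0.17), with P4HB 1.57-fold lower (1.54 to 1.61) and HSPA5 1.51-fold lower (1.44 to 1.58).

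Other ligand genes for T cells and natural killer cells had 10 of 14 members measured in each pair. In the acinar tumor ICAM1, an adhesion ligand of leukocytes, had 6.98 scaled counts, against 1.96 in the solid tumor, a fold of 3.56 (1.92 to 7.03), and LGALS9, which encodes galectin-9, 1.96-fold higher (40.3 against 20.6 scaled counts, 1.6 to 2.42). VTCN1, the gene of an inhibitory B7 family ligand, stood 7.04-fold lower (0.775 against 5.45 scaled counts, 2.77 to 22.9). In all, 5 of 10 were past 1.5-fold higher in the acinar tumor, where 6.34% of all genes were, and 1 lower, where 8.07% were. In the mix culture 0 of 10 were past 1.5-fold in either direction, where 3.31% of all genes were higher and 6.83% lower. The co-stimulatory gene CD80 was listed at 0 in all 4 libraries, and CD86 had 2 fragments in the mix culture and was listed at 0 in the others.

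Fibroblast markers were also read beside the culture results, since the mix culture was grown with CAFs. The summed level of 10 fibroblast markers was 33.7 scaled counts in the mix and 23.1 in the single culture, against 88.8 in the acinar and 54.1 in the solid tumor. COL1A1 gave most of it in the cultures, at 29.5 scaled counts in the mix and 19.3 in the single culture. In the tumors LUM was at 55.4 scaled counts in the acinar and 19.6 in the solid tumor. Between the cultures 3 of the 10 markers were measured, with 2 above 0 and 1, PDGFRA, below (1.13 in the mix, 1.96 in the single culture). Against the cultures 3 of 6 measured markers lay higher in both tumors, where 39.8% of all genes did, and 2 lower, where 38.7% did. The 2 lower ones were THY1 and PDGFRA, listed at 0 in both tumors. POSTN was listed at 0 in all 4 libraries, DCN and FAP in both cultures, and LUM had 1 fragment in the mix culture and was listed at 0 in the single culture. The part of fibroblast RNA in the class I and class II values was not tested.

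Fragments of near-identical HLA copies can be assigned to the wrong gene. Of the 50-base stretches of the longest coding GENCODE v29 transcript, 2.54% were shared with transcripts of another gene for HLA-B, 6.71% for HLA-C, 5.13% for HLA-E and 9.92% for HLA-DRB1, against 0% for B2M, CD74 and HLA-DRA. For HLA-DMA the share was 11.6%, for PSMB9 12.1%, for HLA-DMB 29.01%, for TAP2 35.8% and for PSMB10 38.9%. The values of these genes are uncertain to the extent that shared fragments were counted for either gene.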

How the data were processed

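RNA-seq values of 4 libraries, 1 per group, were analysed. The authors deposited one signal table (26255 gene symbols, 1 column for each library), whose values are a raw signal per the file headers. Cuffdiff 2.2.1, SAMtools 1.0, Bowtie2 2.2.3 and TopHat2 2.0.13 appear with build hg19 in the submitters' processing notes, without their roles. No source used states the annotation, the strand setting or any filter. Each library had a step common to all genes, and 90.0% to 91.1% of its nonzero values were that step times a whole number (tolerance 0.05), so the signal was read as fragment counts divided by a library factor. The rest were fractional, and no count model was fitted.

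All values were divided by 8.94 (scaled counts). 3 fragments equal 0.465 scaled counts in the acinar tumor, 0.420 in the solid tumor, 0.242 in the mix and 0.267 in the single culture. Ratios for counts past 2-fold or 1.5-fold used a pseudocount of 1 and only genes reaching 1 in a library compared, which understates low genes. Printed folds are plain ratios of scaled counts. The 95% intervals are Clopper-Pearson, conditional on the sum of both counts, given where both values were whole fragments. No molecular identifiers were recorded and fragments may be copies of one molecule, so intervals and floors cover counting error only. The ratio and interval code (Python 3.11.15, SciPy 1.17.1) was tested on simulated data. The 31 genes and all lists were chosen with earlier results of these data known. All members were accounted for, and from the 11 other lists genes past 1.5-fold and IRF1 could be named, and 1 further gene is not reported here. RFX5, CD80, CD86, OAS1, IRF7 and the marker genes named were chosen after their values were seen, as were the gene pairs and promoter motifs. Of 127 entries in those lists, 126 matched a symbol.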

Additional observations from a re-analysis of the deposited data

How the results depend on the processing

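Under all 6 alternatives the median log2 ratio of the members kept its sign, from -0.31 to -0.16 in the mix against the single culture and from -0.21 to -0.09 in the acinar against the solid tumor. No member past 1.5-fold changed direction. Counts past a limit were small and moved. With a pseudocount of 5, the mix culture had 1 member past 1.5-fold lower, the acinar tumor 0 past 1.5-fold higher and 0 past 2-fold lower, and the tumors 1 member past 2-fold above and 1 below the cultures. With a pseudocount of 0.1, the mix culture had 2 members past 2-fold lower and 1 member past 1.5-fold higher, the acinar tumor 2 past 2-fold lower, and the tumors 4 past 2-fold below the cultures. With a filter of 5 scaled counts, the acinar tumor had 0 past 1.5-fold higher and 0 past 2-fold lower, and 1 gene was below the cultures. With no filter, the acinar tumor had 5 past 1.5-fold lower and the mix culture 1 past 1.5-fold higher. Pseudocounts act most on low genes, and filters change which genes are tested. Dividing each library by its own total moved the median of all genes by at most 0.02 within each pair, and left 3 members past 2-fold above the cultures, as did keeping whole-fragment genes alone. No paired analysis was possible because each group has 1 library, and no library could be left out. Depth limits CD274, CIITA, HLA-DP, HLA-DQ and HLA-DRB1, which rest on under 40 fragments in every library.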
